A study of Mus musculus with 14 samples.

Results

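The killer lectin receptor genes encode C-type lectin-like receptors and, in the Clec2 family, their ligands, most of them in a cluster on mouse chromosome 6. They were chosen as the protein-coding RefSeq genes of that chromosome (GRCm38) whose symbol starts with Klr or Clec2, together with Cd69, which gave 36 genes of 21774 in all. By family these are 5 Klrb1, 8 Clec2, 9 Klrc to Klrk, 11 Klra and 2 Klrg genes, and Cd69. Peaks of H3K27ac, CTCF and ETS1 were counted within each gene and 10 kb on either side of it, and along the cluster. The data came from CUT&RUN, in which an antibody-guided nuclease releases DNA around its target. The cells were Th1 cells, grown from splenic naive CD4+ T cells for 6 days on plate-bound anti-CD3 with soluble anti-CD28, IL-12 at 10 ng/mL and IL-2 at 1 ng/mL. Cells of a strain given as C57BL/6J-Ets1-SE-KO (KO) were set against C57BL/6J cells (WT), with 2 libraries per genotype for each of the 3 antibodies and 1 IgG library per genotype. By their titles, the KO libraries are 2 biological replicates and the WT libraries are technical replicates of 1 biological replicate, so an SD over WT libraries is a technical spread.

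In natural killer (NK) cells the receptors of this cluster read the surface of other cells. Klra (Ly49) receptors bind MHC class I, Klrd1 (CD94) pairs with Klrc chains to bind the class Ib molecule Qa-1, Klrk1 (NKG2D) binds stress-induced ligands, and Klrb1 receptors (NKR-P1) bind Clec2 proteins. Cd69 lies inside the cluster but is an early activation antigen of T cells and other leukocytes that counteracts the sphingosine phosphate receptor S1pr1. H3K27ac marks active promoters and enhancers, CTCF binds insulators and the anchors of chromatin loops, and ETS1 is a transcription factor of T and NK cells.

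Of the 36 genes, 31 had at least 1 entry, 37 in all, in the RefSeq promoter table (GRCm38.p6), which runs from 250 bases before to 50 bases after a transcription start. Peaks overlapped 3 of these entries, and those sequences are shown because they are the starts at which a mark or factor was called. The Klrg2 promoter is at chr6:38637190-38637489 on the minus strand, the Clec2l promoter at chr6:38662819-38663118 on the plus strand, and the Clec2d promoter at chr6:129180365-129180664 on the plus strand. Capitals mark GGAA or its complement TTCC, the core that ETS proteins recognise.
Klrg2: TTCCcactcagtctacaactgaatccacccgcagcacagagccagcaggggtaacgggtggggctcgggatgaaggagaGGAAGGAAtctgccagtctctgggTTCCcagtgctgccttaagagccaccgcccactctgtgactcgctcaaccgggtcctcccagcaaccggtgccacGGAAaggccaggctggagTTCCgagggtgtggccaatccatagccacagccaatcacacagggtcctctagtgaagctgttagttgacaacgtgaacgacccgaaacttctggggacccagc
Clec2l: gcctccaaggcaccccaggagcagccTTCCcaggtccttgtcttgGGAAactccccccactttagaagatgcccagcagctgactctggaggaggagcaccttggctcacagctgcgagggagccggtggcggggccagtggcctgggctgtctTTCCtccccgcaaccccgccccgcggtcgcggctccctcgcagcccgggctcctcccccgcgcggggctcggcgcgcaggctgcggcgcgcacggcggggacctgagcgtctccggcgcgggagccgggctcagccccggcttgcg
Clec2d: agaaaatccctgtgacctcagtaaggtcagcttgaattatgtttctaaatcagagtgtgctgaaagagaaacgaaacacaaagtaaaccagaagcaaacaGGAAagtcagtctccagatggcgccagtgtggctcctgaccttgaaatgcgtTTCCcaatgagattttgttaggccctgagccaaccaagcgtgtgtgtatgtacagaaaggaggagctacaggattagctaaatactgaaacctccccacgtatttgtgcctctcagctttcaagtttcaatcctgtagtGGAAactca
The core occurred 6 times in the Klrg2 sequence, 3 times in the Clec2l sequence and 3 times in the Clec2d sequence. It was present in 97.3% of the genes' 37 promoter entries and in 96.0% of all 32851 entries in the table, so its presence does not set them apart. The longer ETS motif CCGGAA, searched on both strands and overlapping the short core, was in none of the 37, against 14.9% of all entries. CTCF peaks of both KO libraries and of no WT library overlapped the Klrg2 and the Clec2l promoter, but these were low in their lists, and none of them was left once every CTCF list was reduced to the same number of peaks by score. ETS1 peaks of KO replicate 1 and WT replicate 2 also overlapped the Klrg2 promoter. At the Clec2d promoter, H3K27ac and CTCF peaks were called in all 4 libraries of each antibody and ETS1 peaks in KO replicate 1 and WT replicate 1. Among other motifs searched on both strands, AP-1 (TGANTCA) was in 8 of the 37 entries (21.6%, against 7.81% of all), RUNX (TGTGGT) in 9 (24.3%, against 16.8%), and the T-box core (AGGTGT) in 2 (5.41%, against 13.7%). A match to these letters is a description of the sequence only. Cd69, Klrg1, Clec2f, Klrd1 and Klri2 had no entry.

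The lists held 26465 and 28647 H3K27ac peaks in KO and 24711 and 24581 in WT. CTCF had 40502 and 39345 in KO and 33144 and 31368 in WT. For ETS1 the libraries of a genotype differed widely, with 40705 and 9344 peaks in KO and 14013 and 23419 in WT. The IgG lists, with 285 peaks in KO and 2 in WT, had none at the 36 genes or in the cluster. Peak lists hold no read counts, so depth is unknown, and the values below are lengths of sequence under called peaks or numbers of peaks. At Ets1, the gene named in the strain label, H3K27ac covered 24.2 and 23.4 kb in KO against 46.6 and 44.1 kb in WT. Among Th1 markers H3K27ac covered 6.33 and 6.26 kb at Cd4 in KO against 5.23 and 5.35 kb in WT, and 10.8 and 8.88 kb at Tbx21 in KO against 8.98 and 9.68 kb in WT. Of the 8 Th1 markers, Cxcr3 had no H3K27ac peak and Ifng had 1 in a single WT library. Of the 8 NK markers, Ncr1, Gzma, Klrb1c, Klrk1 and Klrd1 had no H3K27ac peak in any library, while Gzmb, Eomes and Prf1 had one. Klrb1c, Klrk1 and Klrd1 are themselves among the 36 genes, so they are no separate marker of the cells here. A peak was present at 1 of 2 CD8 markers (Cd8b1, not Cd8a), at the B cell marker Cd79a (not Ms4a1 or Pax5) and at 3 of 4 myeloid markers (Csf1r, Cd68 and Itgam, not Lyz2). H3K27ac at Cd79a averaged 8.04 kb in KO and 4.92 kb in WT, at Csf1r 5.47 kb in KO and 3.71 kb in WT, and at Cd68 3.88 kb in KO and 2.50 kb in WT. The part of such cells in the results was not tested. In a bulk list, fewer cells that carry a mark and less of the mark per cell cannot be told apart.

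In these T cells H3K27ac lay almost wholly in the Klrb1 and Clec2 part of the cluster, around Clec2d and Cd69, and was missing from the Klrc to Klrk and Klra genes. H3K27ac was within 10 kb of 6 of the 36 genes (16.7%), against 61.0% of all protein-coding genes. These were Clec2d, Cd69, Clec2m, Clec2g, Clec2i and Clec2l. No Klrb1, Klrc to Klrk, Klra or Klrg gene had an H3K27ac peak in any of the 4 libraries. CTCF was near 18 of the genes (50%, against 73.8% of all genes) and ETS1 near 15 (41.7%, against 75.7%). In all, 24 genes had a peak of some antibody in some library. The 12 without any were Klrb1, Klrk1, Klrc3, Klrc2 and Klrh1, and the Klra genes Klra2, Klra3, Klra4, Klra5, Klra6, Klra8 and Klra10.

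**Figure D1:**
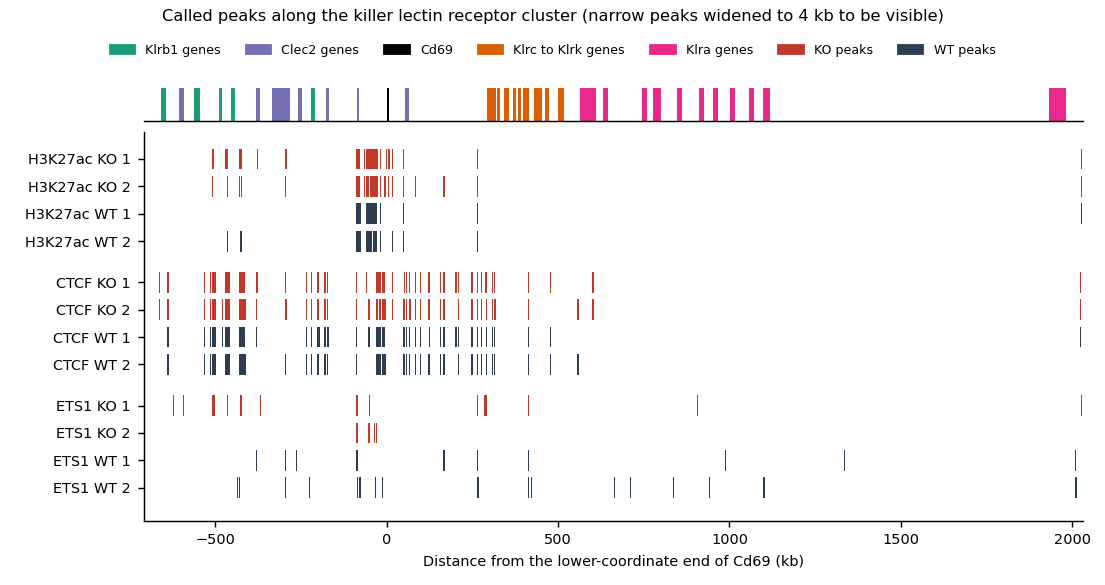
Called peaks of the 12 H3K27ac, CTCF and ETS1 libraries (rows) by distance in kb from the lower-coordinate end of Cd69, with genes coloured by family above, KO peaks red and WT peaks dark. Peaks narrower than 4 kb are drawn 4 kb wide. H3K27ac peaks lie mostly left of Cd69 and are missing from the Klrc to Klrk and Klra genes, which sit in a gap of 1.76 Mb.

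For the counts between genotypes, a gene was called higher in KO when both KO libraries had more covered length than both WT libraries, and higher in WT in the opposite case. H3K27ac was higher in KO at 4 of the 6 genes with a peak, Clec2d, Cd69, Clec2m and Clec2g, where this held for 54% of the 13284 genes with an H3K27ac peak. It was higher in WT at 0 of them, against 6.37% of genes, and the libraries overlapped at Clec2l and Clec2i. The median log2 ratio of covered length (KO mean over WT mean, 1 kb added to each) was 0.56 over the 6 genes and 0.18 over all genes. CTCF was higher in KO at 5 of the 18 genes with a peak, against 56.3% of 16072 genes, and higher in WT at 0, against 3.02%. Its median log2 ratio was 0.17 over the 18 genes and 0.21 over all genes. ETS1 was higher in KO at 0 of 15 genes, against 3.86% of 16473 genes, and higher in WT at 2, Clec2g and Klrc1, against 7.47%. Its median log2 ratio was -0.11 over the 15 genes and 0.04 over all genes. With flanks of 50 kb, 13 of 14 genes with an H3K27ac peak were higher in KO, against 61.9% of all genes, and 13 of 28 with a CTCF peak, against 64.2%, with 1 of the 28 higher in WT, against 2.16%. For ETS1, 9 of 32 were then higher in WT, against 5.09%. Windows this wide overlap between neighbouring genes of the cluster, so the same peak can count for several genes. The counts with 50 kb flanks are therefore not counts of separate observations. With equal numbers of top-scored peaks per library, 3 of 6 genes were higher in KO for H3K27ac, against 49.9%, with Clec2g no longer among them. For CTCF, 4 of 18 were higher in KO, against 41.6%, and 3 were higher in WT, against 6.54%, namely Klrg1, Cd69 and Klri2. Only 5 of the 15 genes with an ETS1 peak kept one at equal numbers of peaks. Of these 5, 0 were higher in KO, against 9.58% of all genes. Clec2g and Klrc1 were again the 2 higher in WT, against 14.3%. The added 1 kb pulls ratios of short lengths towards 0. With 0.1 kb added the H3K27ac log2 ratio was 2.01 at Cd69, 1.08 at Clec2m and 1.41 at Clec2d, against 0.84, 0.36 and 1.22 with 1 kb. No gene was tested singly, since 2 libraries against 2 cannot give an exact two-sided permutation p below 0.333.

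Clec2d, on chromosome 6 from 129180615 to 129186535, encodes the ligand (Clr-b) of the inhibitory receptor Klrb1b and carried the longest H3K27ac of the 36 genes. H3K27ac covered 9.82 and 9.79 kb at Clec2d in KO, against 4.01 and 3.26 kb in WT. The KO libraries nearly coincided and both lay far above the WT libraries, with means of 9.81 ± 0.018 kb in KO and 3.64 ± 0.530 kb in WT (SD, n = 2 each) and a log2 ratio of 1.22. The difference came largely from the region 129182488 to 129190273, which covers most of the gene and runs past its end, with 7767 and 7729 bp under peaks in KO and 2665 and 2340 bp in WT. Its 7786 bp ranked 216 of 36466 H3K27ac regions by width, where the median was 651 bp. At the promoter, the region from 129179759 to 129181823 was called in all 4 libraries and spanned 2053 and 2065 bp in KO against 1348 and 924 bp in WT. CTCF at Clec2d covered 1.02 and 0.877 kb in KO and 0.868 and 0.825 kb in WT, a log2 ratio of 0.08, and the nearest KO and WT values differed by less than the spread within KO. ETS1 covered 0.573 and 0.480 kb in KO and 0.548 and 0.586 kb in WT, so the libraries overlapped. Clec2d was the only gene of the 36 with ETS1 in all 4 libraries. The peak of KO replicate 2, from 129180700 to 129181179, lay beside the promoter entry and not over it. WT replicate 2 had its peaks from 129182724 to 129182906 and from 129189853 to 129190255. The KO peaks ranked at 84.7% and 97.2% of their lists by score. With equal numbers of peaks per library, ETS1 at Clec2d covered 0 and 0.480 kb in KO and 0.548 and 0 kb in WT.

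Cd69, on chromosome 6 from 129267324 to 129275375, had less. H3K27ac covered 1.51 and 0.850 kb in KO, against 0 and 0.435 kb in WT, a log2 ratio of 0.84. The genotypes did not overlap, but the KO libraries differed from each other by more than the lower of them differed from the higher WT library. Regions called in KO replicate 1 alone held 790 bp (129267528 to 129268317) and 189 bp, and a region called in KO replicate 2 alone held 158 bp. The 790 bp peak ranked at 91.7% of its list by score. The H3K27ac lengths at Cd69 were unchanged with equal numbers of peaks. Inside the gene, the region from 129273735 to 129274011 was called in both KO libraries and in no WT library, with the authors' fold enrichments of 3.44 and 3.48. At higher coordinates than the gene, the region from 129284135 to 129284685 was called in KO replicates 1 and 2 and in WT replicate 2. CTCF at Cd69 covered 0.602 and 0.880 kb in KO and 0.735 and 0.499 kb in WT (0.438 and 0.472 kb in KO and 0.735 and 0.499 kb in WT with equal numbers of peaks). A CTCF region called in all 4 libraries, from 129260003 to 129260739, lay at lower coordinates than the gene. No ETS1 peak lay within 10 kb of Cd69 in any library.

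The widest acetylated region of the cluster lay between these genes, outside the 10 kb windows of both. It ran from 129208491 to 129238590, 21956 bp beyond the end of Clec2d and 28734 bp from the lower-coordinate end of Cd69. At 30100 bp it ranked 5 of all 36466 H3K27ac regions by width. H3K27ac covered 30.1 and 28.4 kb of it in KO, against 24.5 and 23.5 kb in WT. It was called as 1 and 3 peaks in the KO libraries, the widest of them 30.1 and 20.5 kb, and as 6 and 7 peaks in the WT libraries, the widest of them 18.2 and 9.60 kb. The domain was thus present in both genotypes and was more broken up in the WT lists. Over the whole genome, too, H3K27ac peaks covered more in KO, with means of 28.3 Mb in KO and 21.5 Mb in WT, a log2 ratio of 0.39. ETS1 peaks in it were called in 1 library at a time, 1 and 3 peaks in KO and 0 and 1 in WT. CTCF peaks of all 4 libraries lay at its Cd69 end, from 129237793 to 129238588, with fold enrichments of 3.68 and 3.56 in KO and 3.23 and 3.14 in WT.

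Over the whole interval of 80.8 kb between Clec2d and Cd69, H3K27ac covered 36.6 and 34.7 kb in KO, against 25.3 and 24.2 kb in WT. The means were 35.7 ± 1.34 kb in KO and 24.7 ± 0.773 kb in WT (SD, n = 2 each), a log2 ratio of 0.51 with an exact two-sided permutation p of 0.333, the smallest this design allows. On either side of the wide domain, both KO libraries and no WT library had a peak, at 129203444 to 129204543 and at 129239333 to 129240394. CTCF peaks were dense in this interval, at 9 and 9 in KO and 8 and 7 in WT. Beyond the domain, 5 CTCF regions called in all 4 libraries lie between 129241621 and 129260739, the last of them within the window of Cd69.

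**Figure D2:**
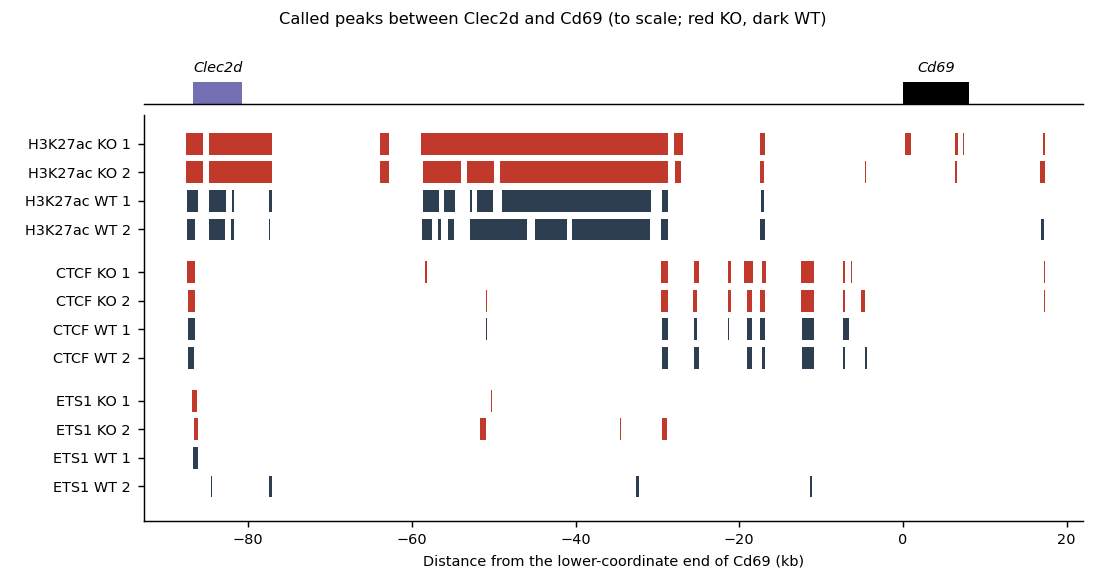
Called peaks to scale between Clec2d and Cd69 for the 12 libraries (rows), by distance in kb from the lower-coordinate end of Cd69, KO peaks red and WT peaks dark. The wide acetylated domain is 1 and 3 peaks in the KO libraries and 6 and 7 in the WT libraries, and CTCF peaks follow between the domain and Cd69.

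The other acetylated genes belong to the Clec2 family. Clec2m, at higher coordinates than Cd69, had 0.530 and 0.541 kb of H3K27ac in KO, against 0.166 and 0.235 kb in WT. Its log2 ratio was 0.36, with a narrow spread within each genotype. CTCF at Clec2m covered 2.35 and 1.23 kb in KO and 1.21 and 1.24 kb in WT, so only KO replicate 1 stood apart. Clec2g, named here after its values were seen, had 0.975 and 0.436 kb in KO and no H3K27ac peak in WT. The region that both KO libraries share runs from 128972438 to 128973006 inside the gene, with fold enrichments of 3.83 and 3.10, and a second region, from 128974561 to 128975003, was called in KO replicate 1 alone. The shared peak of KO replicate 2 ranked at 98.4% of its list by score and is lost with equal numbers of peaks, which ends the call at Clec2g. An ETS1 region called in both WT libraries and in no KO library, from 128972336 to 128972968 with fold enrichments of 4.15 and 4.33, overlapped it. CTCF was called at the same place in KO replicates 1 and 2 and in WT replicate 2. Clec2i, also seen first, had 0.169 kb of H3K27ac in KO replicate 1 and none in KO replicate 2 or in WT.

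Clec2l lies far from the cluster, from 38663069 to 38680865, and had 1.18 and 2.01 kb of H3K27ac in KO and 1.21 and 0.841 kb in WT, which overlapped. Most of this was a shared region from 38689573 to 38694768 whose nearest gene is Hipk2, not Clec2l. CTCF at Clec2l covered 1.47 and 1.71 kb in KO and 1.15 and 1.58 kb in WT, and ETS1 0.684 and 0 kb in KO and 0.182 and 0.571 kb in WT, both overlapping between the genotypes. Clec2e, Clec2f and Clec2h had no H3K27ac peak. Clec2e had CTCF of 0.939 and 1.10 kb in KO and 1.09 and 0.664 kb in WT. Clec2f and Clec2h had no CTCF peak and an ETS1 peak in 1 library each. Clec2g and Clec2i had CTCF in 3 libraries each, at 0.660 kb or less.

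Across the 13 H3K27ac regions within 10 kb of a member gene, 2 were called in both KO libraries and no WT library (KO-only), against 7.1% of all H3K27ac regions. None was called in both WT libraries and no KO library (WT-only), against 2.7%, and 4 were shared by all 4 libraries, against 44.0%. With equal numbers of peaks per library, 1 region was KO-only, against 5.08%. Along the cluster 6 of 24 regions were KO-only and 0 were WT-only, and 4 of the 6 had this pattern with equal numbers of peaks too, those in Clec2g and at 129239333 being lost. CTCF peaks of all 4 libraries overlapped 2 of these 6 KO-only regions (33.3%), against 14.1% of the 2588 KO-only regions in all. These are the region from 128760311 to 128761069, whose nearest gene is Klrb1c at 17416 bp, and the region from 128838209 to 128839664. Among H3K27ac regions shared by all 4 libraries, CTCF of all 4 libraries overlapped 4 of the 6 in the cluster (66.7%), against 49.4% of all. Any ETS1 peak overlapped 5 of the 13 H3K27ac regions at the genes, against 51.6% of all H3K27ac regions, and any CTCF peak 7 of the 13, against 50.2%.

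**Figure D3:**
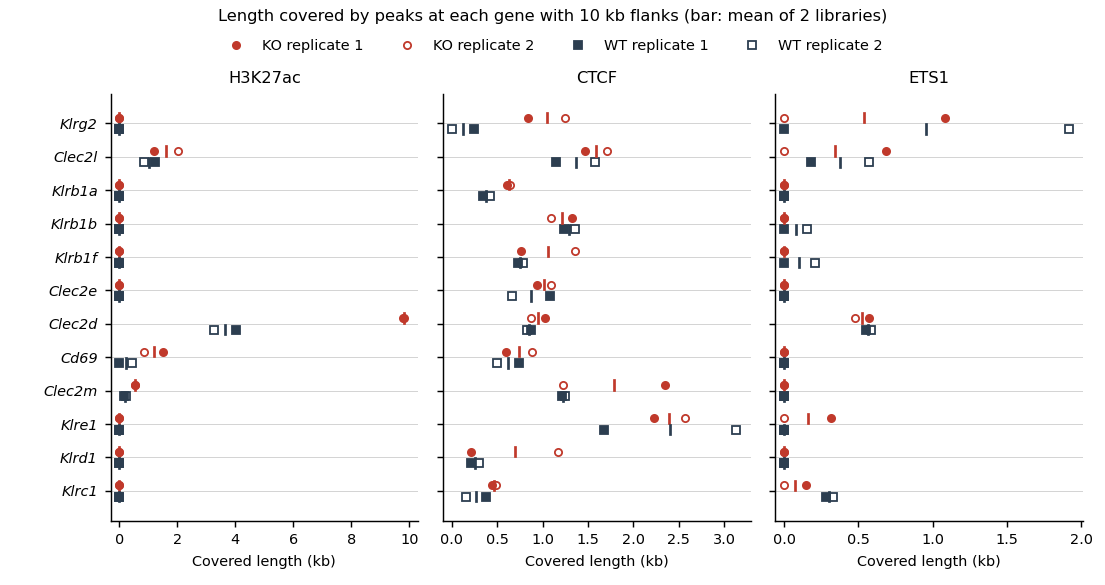
Covered length in kb at each of 12 genes with 10 kb flanks, by antibody, with KO libraries as red circles above WT libraries as dark squares and the mean of 2 libraries as a bar. Clec2d at 9.82 and 9.79 kb in KO stands apart for H3K27ac, while the CTCF values of most genes overlap between the genotypes.

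Of the 5 Klrb1 genes, whose receptors are on NK cells and some T cells, 4 had CTCF and none had H3K27ac. Klrb1b, the inhibitory receptor for Clec2d, had CTCF of 1.33 and 1.10 kb in KO and 1.24 and 1.35 kb in WT. Klrb1f had 0.762 and 1.35 kb in KO and 0.726 and 0.779 kb in WT. Both overlapped between genotypes, and the 2 KO values of Klrb1f lay farther apart than its 2 WT values. Klrb1a had 0.613 and 0.639 kb in KO and 0.342 and 0.420 kb in WT, a log2 ratio of 0.24, including a KO-only region from 128604493 to 128604836. With equal numbers of peaks the ratio was 0.15 and that region was called in KO replicate 2 alone. Klrb1c (NK1.1), a standard NK marker in this strain, had a CTCF peak in 3 libraries and 0.211 kb at most. The highest CTCF enrichments of the cluster lay here. A region near Klrb1f from 129066882 to 129067431 reached fold enrichments of 10.96 and 10.66 in KO and 10.41 and 9.67 in WT. A region near Klrb1c from 128760846 to 128761551 reached 10.72 and 10.40 in KO and 8.87 and 8.41 in WT. These folds are the authors' own, made within each library, and their size is not compared between lists.

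The Klrc to Klrk genes encode the NKG2 receptors and their partners and had no H3K27ac in any of the 4 libraries over their whole segment of 244.9 kb. CTCF was called in it 6 and 5 times in KO and 5 and 5 times in WT. Klre1, whose product pairs with the Klri chains, had the longest CTCF of the 36 genes, at 2.22 and 2.56 kb in KO and 1.68 and 3.13 kb in WT, so the KO values lay between the WT values. Its regions include 129557598 to 129559894 at the lower end of the gene and 129581183 to 129582099, which also falls within the window of the neighbour Klrd1. Klrd1 (CD94) had 0.212 and 1.17 kb in KO and 0.215 and 0.295 kb in WT. Klrc1 (NKG2A), the inhibitory partner of Klrd1, had 0.448 and 0.491 kb in KO and 0.376 and 0.156 kb in WT, a log2 ratio of 0.22. Leaving out WT replicate 1 gave 0.35, leaving out WT replicate 2 gave 0.09, and adding 0.1 kb in place of 1 kb gave 0.64. ETS1 at Klrc1 covered 0.150 and 0 kb in KO and 0.280 and 0.330 kb in WT. Both factors met at 1 place in the gene, where CTCF of all 4 libraries (129680243 to 129680750) and ETS1 of KO replicate 1 and both WT libraries (129680386 to 129680665) were called without H3K27ac. Of the paired chains of Klre1, Klri2 had CTCF in 3 libraries, at 0.375 kb or less, and Klri1 had an ETS1 peak in WT replicate 2 alone.

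The Klra genes, which encode the Ly49 receptors, formed the emptiest stretch. Of their 11 members only Klra17, whose product Ly49Q is found on plasmacytoid dendritic cells, had a CTCF peak, at 0.335 and 0.698 kb in KO and 0 and 0.219 kb in WT (named after its values were seen). Its KO-only region runs from 129869068 to 129869572 and was called in KO replicate 2 alone with equal numbers of peaks. Over the Klra segment of 575.7 kb, H3K27ac was called 0 times in each library, CTCF 1 and 2 times in KO and 0 and 1 times in WT, and ETS1 1 and 0 times in KO and 1 and 5 times in WT. The ETS1 peaks at Klra9, Klra7 and Klra1 were each in 1 library. The Klra genes include closely similar copies. How the authors treated reads that align to several places is not given in the sources used here, and its part in the lack of peaks was not tested.

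Long gaps without a called peak lay within the cluster. No H3K27ac peak of any library lay between 129533926 and 131292777, a gap of 1758852 bp that holds 20 of the 36 genes, from Klre1 to Klra2, and ranks 258 of 36445 gaps in length. The gap in CTCF ran from 129869573 to 131289881, 1420309 bp, with 10 Klra genes inside, and ranked 255 of 47563 gaps. The longest ETS1 gap of the cluster, from 130602920 to 131276779, ranked 517. Both genotypes shared the gaps, since a gap was taken over all 4 libraries of an antibody.

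Along the whole cluster, from 128559227 to 131297716 (2738 kb, every member but Klrg2, Clec2l and Klrg1), H3K27ac covered 49.5 and 48.7 kb in KO, against 30.3 and 29.4 kb in WT. The means were 49.1 ± 0.583 kb in KO and 29.9 ± 0.670 kb in WT (SD, n = 2 each). The log2 ratio was 0.70, with an exact two-sided permutation p of 0.333, and the same ratio over the genome was 0.39. Nearly all of it was in the Klrb1 and Clec2 segment, with 48.2 and 46.4 kb in KO and 29.04 and 28.8 kb in WT. CTCF covered 33.7 and 31.03 kb of the cluster in KO and 28.4 and 26.3 kb in WT, a log2 ratio of 0.23 with an exact two-sided permutation p of 0.333, against 0.38 over the genome. With equal numbers of CTCF peaks per library that ratio was 0.05. ETS1 covered 4.27 and 1.99 kb in KO and 2.82 and 6.24 kb in WT, a log2 ratio of -0.42 with an exact two-sided permutation p of 0.667. Within each genotype the longer ETS1 list had the longer coverage, and with equal numbers of peaks per library the ratio was 0.10, of the opposite sign. Without WT replicate 2 it was 0.11. The p-values of H3K27ac and CTCF are the smallest that the design gives, and they treat the technical WT pair as separate replicates.

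Of the 43 CTCF regions at the genes, 5 were KO-only, against 8.61% of all CTCF regions, 0 were WT-only, against 0.58%, and 21 were shared (48.8%), against 53.0%. With equal numbers of peaks per library, 1 was KO-only, against 3.63%, and 1 WT-only, against 2.32%. Along the cluster 45 of 69 CTCF regions were shared (65.2%). Of the 25 ETS1 regions at the genes, 0 were KO-only, against 0.518% of all, 1 was WT-only, against 1.12%, and 0 were shared, against 11.9%. The other 24 showed none of these patterns, and most of them were called in 1 library. In the Klrb1 and Clec2 segment CTCF density was 51.8 peaks per Mb in KO and 45.4 in WT, against 14.7 in KO and 11.9 in WT over the genome. The density was 22.5 in KO and 20.4 in WT over the Klrc to Klrk genes, and 2.61 in KO and 0.868 in WT over the Klra genes.

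**Figure D4:**
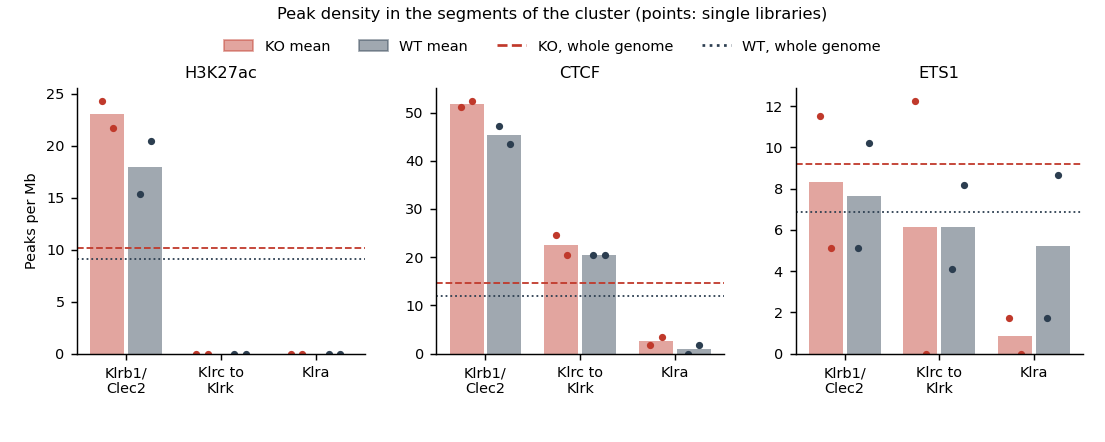
Peaks per Mb in 3 segments of the cluster by antibody, with bars for the mean of 2 KO libraries (red, left) and 2 WT libraries (dark, right), points for single libraries, and lines for the whole genome in KO (dashed) and WT (dotted). CTCF density was 51.8 in KO and 45.4 in WT over the Klrb1 and Clec2 genes, and 2.61 in KO and 0.868 in WT over the Klra genes.

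The Klrg genes stand outside the cluster. Klrg2, from 38616329 to 38638815, had CTCF of 0.844 and 1.25 kb in KO and 0.240 and 0 kb in WT, a log2 ratio of 0.87. The ratio was 0.36 with equal numbers of peaks and 2.38 with 0.1 kb added. Its KO-only CTCF region runs from 38636554 to 38637369 over the promoter shown above. ETS1 at Klrg2 covered 1.08 and 0 kb in KO and 0 and 1.92 kb in WT, which overlapped. Klrg1, a receptor for cadherins on effector T and NK cells, had CTCF peaks in 3 libraries, at 0.362 kb or less, and neither H3K27ac nor ETS1.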

How the data were processed

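The submitters' processing notes name BWA and the build GRCm38, and peak names inside the deposited lists carry the name MACS2. What versions, caller options and control libraries were used, and whether duplicates or blacklisted regions were removed, is not given in the sources used here. The 14 deposited lists hold 1 library each, in 9 columns. The authors' score follows the q-value in whole numbers, the authors' fold is the ratio of a peak's signal to its background, and the deposited −log10 p and −log10 q values are as the peak caller wrote them. Fold and score describe or rank peaks within their own list only.

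Covered length is the sequence under peaks, and log2 ratios are KO mean over WT mean with 1 kb added to each. Within an antibody, peaks of different libraries were joined into 1 region at an overlap of 1 bp. The cluster is the chain of the chosen genes around Cd69 with gaps of at most 1 Mb, and 50 kb at each end. Exact two-sided permutation tests compared 1 value per library. Gene positions and promoter sequences came from RefSeq tables of GRCm38.p6, with no exons, so features are placed as inside a gene or beside it. Klra16 and Klra23 lie on separate sequences and were not analysed. No genome sequence was used, so no peak sequence is shown. Computations used Python 3.11.15, numpy 2.4.6 and matplotlib 3.10.9 and were tested on simulated data.

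Names of the deposited lists number the 2 WT CTCF libraries differently, which leaves their technical status uncertain, and the titles were followed. The genes and lists were chosen with earlier results of these data known. Values per library are given for Cd69 and the 11 other members with the longest mean covered length of any antibody, and list genes are named for the 2 highest and 2 lowest H3K27ac ratios among those whose genotypes do not overlap. Other genes named were picked after their values were seen. Alternatives were equal numbers of peaks (24581, 31368 and 9344 for H3K27ac, CTCF and ETS1), other flanks, overlaps and added lengths, and leaving out each library. The 10 gene lists comprise other NK complex genes, adapters, ligands, transcription factors, activation genes and 5 marker lists.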

Additional observations from a re-analysis of the deposited data

How the results depend on the processing

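No paired analysis was possible because the replicate numbers mark technical replicates in WT and biological replicates in KO. The H3K27ac log2 ratio along the cluster stayed between 0.68 and 0.72 under every alternative run, and that between Clec2d and Cd69 between 0.47 and 0.55 (the alternatives for this interval, and for ETS1 or CTCF at H3K27ac regions, were chosen after seeing the data). The CTCF ratio fell to 0.05 with equal numbers of peaks per library. The ETS1 ratio reversed to 0.10 with equal numbers of peaks and to 0.11 without WT replicate 2, and ranged from -0.89 to 0.11 when each library was left out. With 50 kb flanks, 13 members of 14 were higher in KO for H3K27ac (61.9% of all genes) and 13 of 28 for CTCF (64.2%). For CTCF 1 was higher in WT (2.16% of all genes), and for ETS1 9 of 32 were (5.09%). These windows overlap between neighbouring members and share peaks. With equal numbers of peaks, H3K27ac had 1 KO-only region at the members, CTCF had 1 KO-only and 1 WT-only region and 3 members higher in WT (6.54% of all genes), and 3 H3K27ac regions held ETS1. When each library was left out, H3K27ac KO-only regions numbered 2 to 6, with 4 and 6 without KO replicates 1 and 2. For CTCF, members higher in KO numbered 7 to 11 and in WT 1 to 3, KO-only regions 6 to 9 (8 and 9 without KO replicates 1 and 2) and WT-only regions 0 to 1. For ETS1, members higher in KO numbered 0 to 5 and in WT 2 to 9, KO-only regions 0 to 9 and WT-only regions 1 to 10, the highest values coming without KO replicate 2 (KO counts) and without WT replicate 1 (WT counts). Fewer libraries make non-overlap easier, and the other causes were not tested. The shares over all genes and regions were not computed with a library left out. These counts therefore show only how the calls depend on single libraries. Of 138 recomputed values of named members, 106 stayed within the spread between libraries and 32 moved. The sign changed in 14, all of them values whose genotypes overlapped as reported. Depth is unknown, so an uncalled peak does not show a lack of signal.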

Other observations

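Genes that act with these receptors were also read for H3K27ac. Of 17 other genes of the NK gene complex, 8 had a peak, 2 were higher in KO and 0 in WT, with a median log2 ratio of 0.15. Those higher in KO were Gabarapl1, a gene of autophagosome formation between Cd69 and Klre1, with 1.18 and 1.05 kb in KO and 0.567 and 0.581 kb in WT, and Ybx3, with 1.75 and 2.21 kb in KO and 1.18 and 1.28 kb in WT. Of 14 genes of receptor adapters and signalling, 12 had a peak, 8 were higher in KO and 2 in WT, with a median of 0.29. The log2 ratio was 0.87 at the SLAM adapter gene Sh2d1a and 0.59 at the kinase gene Lck, but -0.39 at Vav1 and -0.24 at Fyn, the 2 higher in WT. Hcst and Tyrobp, which encode adapters of the activating receptors, share a window and had a log2 ratio of 0.35. Of 15 ligand genes, 6 had a peak, 4 were higher in KO and 0 in WT, with a median of 0.34. Besides Clec2d these were Lgals1 at 0.57, B2m at 0.50 and H2-T23, which encodes Qa-1, at 0.18. The Klrk1 ligand genes Raet1d, Raet1e, H60b, H60c and Ulbp1 had no H3K27ac peak. All of these counts stand beside the 54% of genes higher in KO and the 6.37% higher in WT.

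Of 12 T cell activation and residence genes set beside Cd69, 12 had H3K27ac, 9 were higher in KO and 0 in WT, with a median log2 ratio of 0.75 against 0.18 over all genes. The highest were Cd28, a costimulatory receptor, at 1.42 and Il2ra, a chain of the IL-2 receptor, at 1.38, and the lowest of these 9 were Nr4a1 at 0.39 and Itgae at 0.34. Of 19 transcription factor genes of NK and effector T cells, 12 were higher in KO and 4 in WT, with a median of 0.35. The log2 ratio was 1.38 at Tox and 1.00 at Gata3, and -0.90 at Ets1 and -0.41 at Prdm1. Of the Th1 markers with a peak, 4 of 7 were higher in KO, and of the NK and CD8 markers with a peak 0 of 3 and 0 of 1. Of the B cell markers with a peak 1 of 2 was higher in KO (Cd79a), and of the myeloid markers 2 of 3 (Csf1r and Cd68). Over all genes with a peak, 54% were higher in KO and 6.37% in WT. Prf1, which encodes perforin, was the NK marker higher in WT, with 0 and 0 kb in KO and 0.903 and 0.661 kb in WT. Summed over its list, H3K27ac at the NK markers covered 3.28 and 3.91 kb in KO and 5.11 and 4.596 kb in WT. At the B cell markers the sums were 7.49 and 8.58 kb in KO and 5.79 and 4.26 kb in WT, and at the myeloid markers 8.22 and 10.7 kb in KO and 7.07 and 5.80 kb in WT.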
